A study of Mus musculus with 40 samples.

Results

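The 5 genes BC051019, Rassf4, Ppp1r10, Ccnb1ip1 and Mir17hg were selected on their fitted change and adjusted p for ATR kinase inhibition (ATRi) against DMSO in mouse embryonic stem cells (mESCs), as the non-histone genes that were raised. They are 5 of the 55536 gene identifiers in the count tables, and all 5 were among the 18130 genes with enough reads to be tested in both sets of libraries. RNA was sequenced from Atm WT mESCs, pluripotent cells of the early mouse embryo grown on gelatin with LIF, that had received DMSO or 900 nM of the ATRi AZD6738 for 4 h. The clones D1, G2 and H5 lacked Ccnc, the clones B9, H4 and C8 lacked Cdk8, and 2 cultures were WT, each with a DMSO and an ATRi library. Each KO clone is a line of its own, made with CRISPR, so that a difference between KO and WT also holds what differs between clones. The libraries were read as 2 multiplexes, sets of libraries sequenced together, of 10 libraries each. The Ccnc multiplex held the WT and Ccnc KO libraries, and the Cdk8 multiplex paired the Cdk8 KO libraries with a second run of those WT libraries. The multiplexes therefore share their WT libraries, whose values in the second are repeat measurements and not a new replicate.

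ATR is a checkpoint kinase that is activated at stalled replication forks, and through CHK1 it restrains origin firing and holds cells back from mitosis. Cyclin C (Ccnc) and CDK8 are parts of the kinase module of Mediator, the complex that links transcription factors to RNA polymerase II. The 5 genes do not belong to a common pathway. Ppp1r10 encodes PNUTS, a subunit that brings protein phosphatase 1 (PP1) to chromatin, where it acts on RNA polymerase II and its elongation factors near the ends of genes. Ccnb1ip1 encodes HEI10, a RING-domain protein named for its binding to cyclin B and needed for meiotic crossovers. Rassf4 encodes a member of the RAS-association domain family, whose members bind RAS-like GTPases and the Hippo kinases MST1 and MST2. Mir17hg is the long noncoding host transcript from which the miR-17-92 microRNAs are cut, a target of MYC. BC051019 is a protein-coding gene.

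In GENCODE M21, on the genome build GRCm38, BC051019 (ENSMUSG00000031022) lies on the minus strand of chromosome 7 from 109712181 to 109723850, and overlaps Akip1 on the other strand. Rassf4 (ENSMUSG00000042129) lies on the minus strand of chromosome 6 from 116633008 to 116673952. Neither shares an exon base with another gene on its own strand. Ppp1r10 (ENSMUSG00000039220) spans 35916434 to 35932283 on the plus strand of chromosome 17, and 81 of its 5623 exon bases are also those of Mir1894. Ccnb1ip1 (ENSMUSG00000071470) spans 50789248 to 50807732 on the minus strand of chromosome 14, and shares 233 of its 1883 exon bases with Rpph1, the RNA of RNase P. Mir17hg (ENSMUSG00000089726) spans 115042879 to 115046727 on the plus strand of chromosome 14, and 536 of its 3536 exon bases are those of 6 microRNA hairpins. Reads that fall on shared bases of the same strand cannot be assigned to either gene, so the counts of Ccnb1ip1 and Mir17hg rest on their other exon bases.

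The Mir17hg transcript is shown through its best known mature products, since these sequences set what the host gene can act on. The mature microRNAs were taken from RefSeq (GRCm38.p6) and are written 5′ to 3′ with the seed, bases 2 to 8, in capitals.
mmu-miR-17-5p: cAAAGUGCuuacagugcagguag
mmu-miR-20a-5p: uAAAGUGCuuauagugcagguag
mmu-miR-18a-5p: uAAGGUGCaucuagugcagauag
mmu-miR-19a-3p: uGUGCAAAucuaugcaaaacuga
mmu-miR-19b-3p: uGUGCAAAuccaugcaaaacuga
mmu-miR-92a-3p: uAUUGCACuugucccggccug
The 6 sequences carry 4 different seeds. miR-17-5p and miR-20a-5p share a seed and are identical at 21 of 23 positions, and miR-19a-3p and miR-19b-3p share another and are identical at 22 of 23. The seed of miR-17-5p is found in 7 of the 1679 mature names in the RefSeq table, that of miR-92a-3p in 6, and those of miR-18a-5p and of the miR-19 pair in 2 each. miR-19b-3p and miR-92a-3p are each listed at 2 loci. The libraries were made from poly(A) RNA, so what was measured is the host transcript and not the mature microRNAs. The 6 hairpin genes had a count of 0 in every library. Their bases are also exon bases of Mir17hg on the same strand, so this 0 was set by the counting and says nothing about their level.

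Library totals lay between 30899823 counts (Cdk8 KO clone C8, DMSO) and 67274049 counts (the same clone, ATRi). Ccnc was at 4.24 to 7.40 CPM, which scales a count to the library's total, in the Ccnc KO libraries and at 39.6 to 45.1 CPM in the WT libraries beside them. Cdk8 was at 52.3 to 64.5 CPM in the Cdk8 KO libraries and at 57.7 to 78.6 CPM in the WT libraries of that multiplex, so its transcript level does not check the labels. All 8 mESC marker genes passed the filter on low counts in both multiplexes, and their summed level was 2944 to 4336 CPM. The levels below are CPM after TMM scaling. The ATRi library of WT replicate 2 was left out of the fits, following the study's own practice. Its values are shown with the others.

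Compared per kilobase of exon, the 5 genes fell into a group of 3 well expressed genes and a pair near the limit of detection. The median over the 20 libraries was 22.2 CPM per kilobase for Ccnb1ip1, 11.4 for Mir17hg and 9.36 for Ppp1r10. It was 0.376 for BC051019 and 0.130 for Rassf4. Ccnb1ip1 (19.3 to 30.7) did not overlap with Mir17hg (8.86 to 14.9), whereas Mir17hg overlapped with Ppp1r10 (7.22 to 12.1), and BC051019 (0.112 to 1.07) overlapped with Rassf4 (0.0613 to 0.385). In counts, BC051019 had 9 to 107 reads in a library and Rassf4 22 to 161, whereas the lowest counts of Mir17hg, Ccnb1ip1 and Ppp1r10 were 1069, 1254 and 1367. The lowest count, 9 reads of BC051019 in WT replicate 2 in DMSO, has an exact Poisson 95% interval of 4.12 to 17.1 reads, which covers counting error only.

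**Figure D1:**
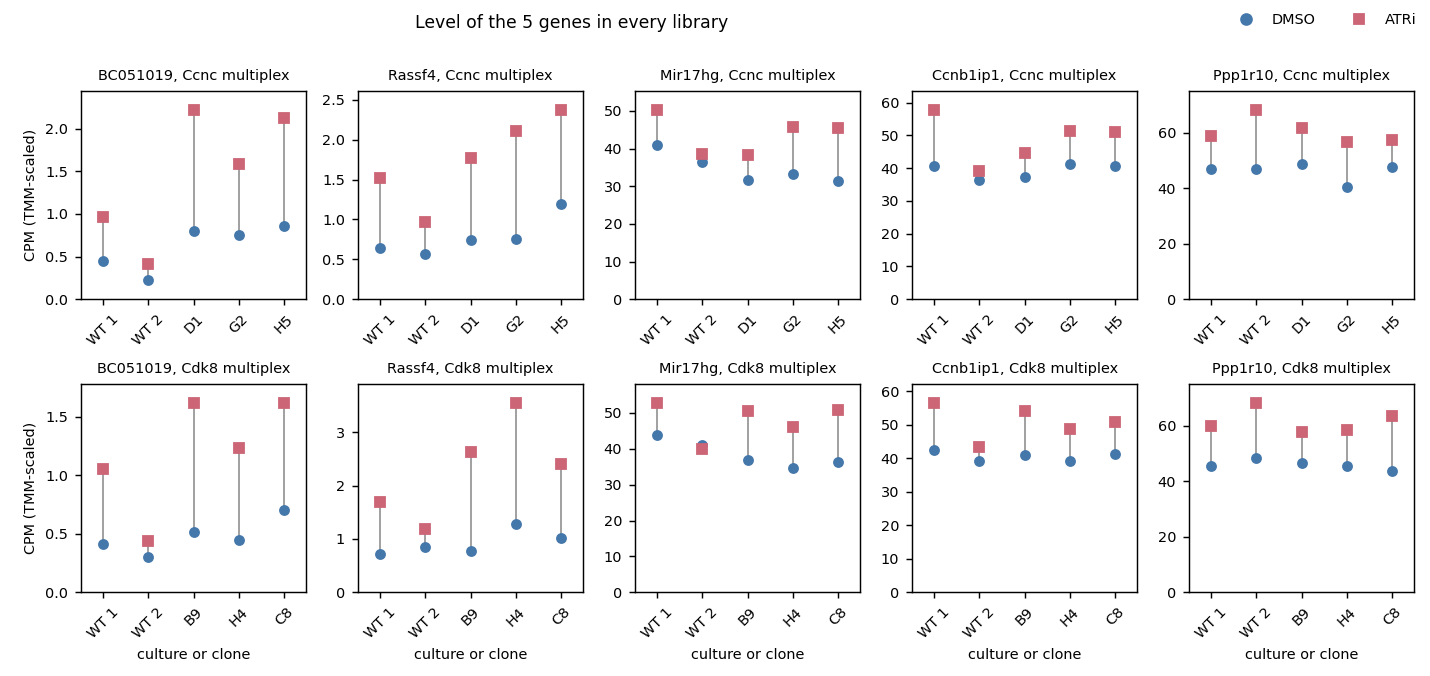
Level in CPM (TMM-scaled, linear axis from 0) of each gene in each library of the Ccnc multiplex (top) and the Cdk8 multiplex (bottom), with circles for DMSO, squares for ATRi and a line joining the pair of a culture or clone. The ATRi value lies above the DMSO value in every pair shown except that of WT replicate 2 for Mir17hg in the Cdk8 multiplex (40.9 in DMSO and 39.8 in ATRi).

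The question put to each gene by the ATRi comparison is how its level after 4 h of ATRi compares with DMSO within each culture or clone. The rise under ATRi is the measure by which the genes were chosen, so the following values describe it and no test is given. BC051019 was at 0.452 and 0.231 CPM in the WT libraries of the Ccnc multiplex in DMSO and at 0.959 and 0.416 in ATRi. In Ccnc KO clones D1, G2 and H5 it was at 0.801, 0.756 and 0.860 CPM in DMSO and at 2.22, 1.58 and 2.12 in ATRi. In Cdk8 KO clones B9, H4 and C8 it was at 0.515, 0.443 and 0.700 CPM in DMSO and at 1.62, 1.23 and 1.62 in ATRi. In both KO genotypes every ATRi library lay above every DMSO library. The fold within a KO clone was 2.44 ± 0.342 for Ccnc KO and 2.75 ± 0.419 for Cdk8 KO (mean ± SD, n = 3 clones each), and the fitted log2 fold change was 1.32 (SE 0.20) in the Ccnc and 1.47 (SE 0.20) in the Cdk8 multiplex.

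Rassf4 was at 0.646 and 0.565 CPM in the WT libraries of the Ccnc multiplex in DMSO and at 1.52 and 0.972 in ATRi. In Ccnc KO clones D1, G2 and H5 it was at 0.741, 0.756 and 1.20 CPM in DMSO and at 1.77, 2.11 and 2.37 in ATRi. In Cdk8 KO clones B9, H4 and C8 it was at 0.782, 1.28 and 1.02 CPM in DMSO and at 2.63, 3.55 and 2.40 in ATRi. The KO groups again did not overlap between treatments, and clone H4 under ATRi held the highest level of Rassf4 in the Cdk8 multiplex. The fold within a KO clone was 2.39 ± 0.407 for Ccnc KO and 2.83 ± 0.507 for Cdk8 KO (n = 3 clones each). The fitted log2 fold change was 1.23 (SE 0.19) and 1.37 (SE 0.20).

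Mir17hg was at 41.0 and 36.4 CPM in the WT libraries of the Ccnc multiplex in DMSO and at 50.3 and 38.5 in ATRi. In Ccnc KO clones D1, G2 and H5 it was at 31.7, 33.2 and 31.3 CPM in DMSO and at 38.3, 45.7 and 45.5 in ATRi. In Cdk8 KO clones B9, H4 and C8 it was at 36.8, 34.7 and 36.4 CPM in DMSO and at 50.5, 46.0 and 50.9 in ATRi. The KO groups did not overlap, but the pair of WT replicate 2 differed by only 1.06-fold and, when sequenced again in the Cdk8 multiplex, by 0.973-fold. The fold within a KO clone was 1.35 ± 0.124 for Ccnc KO and 1.36 ± 0.0359 for Cdk8 KO (n = 3 clones each). The fitted log2 fold change was 0.41 in both multiplexes (SE 0.07 and 0.06).

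Ccnb1ip1 was at 40.7 and 36.4 CPM in the WT libraries of the Ccnc multiplex in DMSO and at 57.8 and 39.1 in ATRi. In Ccnc KO clones D1, G2 and H5 it was at 37.2, 41.3 and 40.6 CPM in DMSO and at 44.6, 51.2 and 50.9 in ATRi. In Cdk8 KO clones B9, H4 and C8 it was at 41.0, 39.2 and 41.4 CPM in DMSO and at 54.2, 48.8 and 50.9 in ATRi. The highest level was that of WT replicate 1 under ATRi, above all KO libraries, while the ATRi level of WT replicate 2 was 1.07-fold that in DMSO. The fold within a KO clone was 1.23 ± 0.0278 for Ccnc KO and 1.27 ± 0.0494 for Cdk8 KO (n = 3 clones each), the narrowest spread among clones of the 5 genes for Ccnc KO. The fitted log2 fold change was 0.39 (SE 0.07) and 0.38 (SE 0.05). Its partner Ccnb1, the cyclin B1 transcript on which the treatment time was chosen, was at 215 to 229 CPM in DMSO and 217 to 251 CPM in ATRi in the Ccnc multiplex, with a log2 fold change of 0.06 (edgeR adjusted p = 0.625), and of 0.09 in the Cdk8 multiplex (edgeR adjusted p = 0.499).

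Ppp1r10 was at 46.9 and 47.0 CPM in the WT libraries of the Ccnc multiplex in DMSO and at 58.7 and 68.2 in ATRi. In Ccnc KO clones D1, G2 and H5 it was at 48.7, 40.6 and 47.7 CPM in DMSO and at 61.9, 56.6 and 57.3 in ATRi. In Cdk8 KO clones B9, H4 and C8 it was at 46.5, 45.6 and 43.5 CPM in DMSO and at 57.6, 58.4 and 63.3 in ATRi. Here WT replicate 2, the culture with the smallest fold for the other 4 genes, had the highest ATRi level, at 1.45-fold over DMSO. The fold within a KO clone was 1.29 ± 0.0966 for Ccnc KO and 1.33 ± 0.115 for Cdk8 KO (n = 3 clones each). The fitted log2 fold change was 0.35 (SE 0.06) and 0.39 (SE 0.05).

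**Figure D2:**
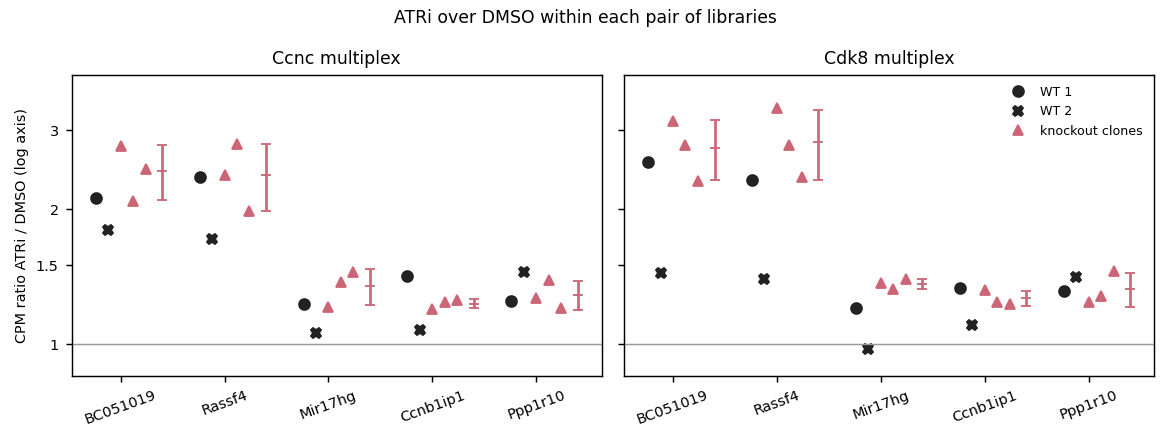
Ratio of CPM in ATRi to CPM in DMSO (log axis) for each pair of libraries, with a circle for WT replicate 1, a cross for WT replicate 2, triangles for the KO clones and a bar for the mean ± SD of the 3 KO clones. BC051019 and Rassf4 lie between 1.40 and 3.37, whereas Mir17hg, Ccnb1ip1 and Ppp1r10 lie between 0.973 and 1.46, and WT replicate 2 is the lowest point for 4 genes and among the highest for Ppp1r10.

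In the Ccnc multiplex all 5 pairs of libraries were higher under ATRi for all 5 genes, a pattern found in 6.07% of the 18577 genes tested. In the Cdk8 multiplex it held for 4 of the 5 genes and for 9.36% of the 18721 genes tested, the exception being Mir17hg with 4 of 5 pairs. The KO clones under ATRi all lay above those in DMSO for all 5 genes, against 8.6% of genes (Ccnc multiplex) and 5.69% (Cdk8 multiplex). These counts repeat the choice of the genes and are no result about them. With a Benjamini-Hochberg adjusted p from edgeR's quasi-likelihood test under 0.05 as the call, 1.11% of genes were called for ATRi in the Ccnc multiplex (68 raised and 138 lowered) and 0.0855% in the Cdk8 multiplex (7 raised and 9 lowered). The genes called and raised in both were 7, the 5 described here and the histone genes Hist1h1c and Hist3h2a. The choice is narrow. The larger of a gene's adjusted p-values was 0.0463 for Rassf4, the last inside, and 0.0508 for Mgat4c, the next non-histone gene outside, whose log2 fold changes (1.43 and 1.68) were above those of Rassf4. Ccnb1ip1 was next to the limit from inside at 0.0450, and Pou4f2 (0.0718), Rbm22 (0.0758) and Nr0b1 (0.0758) followed outside. No further non-histone gene passed in both multiplexes.

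Of 54 replication-dependent histone genes tested, 4 (Ccnc multiplex) and 2 (Cdk8 multiplex) were called and raised. The median log2 fold change was 0.31 and 0.29, against -0.01 over all genes in each. The libraries were made from poly(A) RNA, so these values cover only the histone transcripts captured in it.

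The comparison of KO with WT was not used to choose the genes and could be tested. BC051019 was higher and Mir17hg lower in Ccnc KO cells, and no other gene of the 5 passed the test in either knockout. In the Ccnc multiplex, 2 of the 5 genes were called for genotype, against 12.3% of all genes tested. The fit has no term for the clone, so the DMSO and ATRi libraries of a clone or culture count as separate replicates although genotype varies only between clones. The fit of the DMSO libraries alone, with each clone once, called 0 of the 5, and far fewer genes over all genes. BC051019 was higher in Ccnc KO by a log2 fold change of 1.12 (SE 0.23, edgeR adjusted p = 0.00544). In DMSO all 3 clones (0.756 to 0.860 CPM) lay above both WT cultures (0.231 and 0.452 CPM), and so they did in ATRi. The DMSO libraries alone gave 1.22 (edgeR adjusted p = 0.112). Leaving out WT replicate 1 gave 1.80 (edgeR adjusted p = 0.0668), from a fit with a single WT library, in which that library is assumed to vary like the KO libraries. Mir17hg was lower in Ccnc KO by a log2 fold change of -0.25 (SE 0.07, edgeR adjusted p = 0.0340). In DMSO its 3 clones (31.3 to 33.2 CPM) lay below both WT cultures (36.4 and 41.0 CPM), whereas in ATRi the clones (38.3 to 45.7 CPM) and the WT cultures (38.5 and 50.3 CPM) overlapped.

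The Mir17hg call was close to the threshold. It was lost with WT replicate 2 under ATRi included (-0.16, edgeR adjusted p = 0.302), without WT replicate 1, again with a single WT library (-0.18, adjusted p = 0.491), without clone G2 (-0.28, adjusted p = 0.0562), without clone H5 (-0.25, adjusted p = 0.0648) and in the DMSO libraries alone (-0.26, adjusted p = 0.148). Rassf4 had a log2 fold change of 0.53 (SE 0.21, edgeR adjusted p = 0.117), and Ccnb1ip1 and Ppp1r10 had -0.07 (SE 0.08) and -0.02 (SE 0.07), with adjusted p-values of 0.632 and 0.877.

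In the Cdk8 multiplex, 0 of the 5 genes were called for genotype by edgeR, against 4.31% of all genes tested. At an unadjusted p under 0.05 there were 3, where 21.3% of all genes were. DESeq2 called 1, Mir17hg (log2 fold change -0.19, DESeq2 adjusted p = 0.0487). Over all genes DESeq2 also called more than edgeR did in this multiplex, as given in the last paragraph. BC051019 had a log2 fold change of 0.54 (SE 0.22, edgeR adjusted p = 0.192), with clones at 0.443 to 0.700 CPM in DMSO against 0.304 and 0.412 CPM in WT. Rassf4 had 0.55 (SE 0.22, edgeR adjusted p = 0.188) and Mir17hg -0.19 (SE 0.06, edgeR adjusted p = 0.105). Ccnb1ip1 had -0.06 (SE 0.06, edgeR adjusted p = 0.585) and Ppp1r10 -0.03 (SE 0.05, edgeR adjusted p = 0.776). The values of both knockouts are set against the same WT libraries, and whether the knockouts differ from each other was not tested.

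Marker genes of cell types differed between KO and WT libraries as well. The calls come from the fit with no term for the clone, in which a clone's DMSO and ATRi libraries count as separate replicates. Over all genes tested, this fit called 12.3% (Ccnc multiplex) and 4.31% (Cdk8 multiplex) for genotype. Far fewer genes were called in the DMSO libraries alone, with each clone once, and in the Cdk8 multiplex almost none of these calls remained. The markers are not given for that fit, so whether their calls hold with each clone once is not shown. Of 7 markers of primitive endoderm, 6 were called and higher in Ccnc KO and 7 in Cdk8 KO, among them Dab2, an endocytic adaptor (log2 fold change 2.79 and 3.44), and Sox7 (2.04 and 2.18). Their summed level was 14.9 to 21.1 CPM in WT and 47.7 to 79.8 CPM in Ccnc KO in DMSO, and 15.0 to 21.2 CPM in WT and 60.7 to 117 CPM in Cdk8 KO. None of the 7 was at 0 in any group. Of the 8 mESC markers, Zfp42 (-0.46), Klf4 (-0.41) and Esrrb (-0.32) were called and lower in Ccnc KO and Sox2 (-0.23) in Cdk8 KO, with 6 of 8 at an unadjusted p under 0.05 in each. Their summed level in DMSO was 4012 to 4336 CPM in WT and 3476 to 3939 CPM in Ccnc KO, and 3913 to 4238 CPM in WT and 2944 to 3722 CPM in Cdk8 KO, and none of them was at 0. Of 7 neural and mesoderm markers, Pax6 (-1.35) and Sox1 (-0.62) were called and lower and Eomes (0.84) higher in Ccnc KO, and 0 were called in Cdk8 KO, where 4 had an unadjusted p under 0.05. Their summed level in DMSO was 53.4 to 56.4 CPM in WT and 37.7 to 44.0 CPM in Ccnc KO, and 53.5 to 55.4 CPM in WT and 41.4 to 104 CPM in Cdk8 KO. Of the fibroblast markers 0 of 4 (Ccnc multiplex) and 0 of 6 (Cdk8 multiplex) tested were called, with 3 at an unadjusted p under 0.05 in each. The part of these markers in the genotype differences of BC051019 and Mir17hg was not tested. In these bulk samples, fewer cells of a type and less RNA per cell cannot be told apart.

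**Figure D3:**
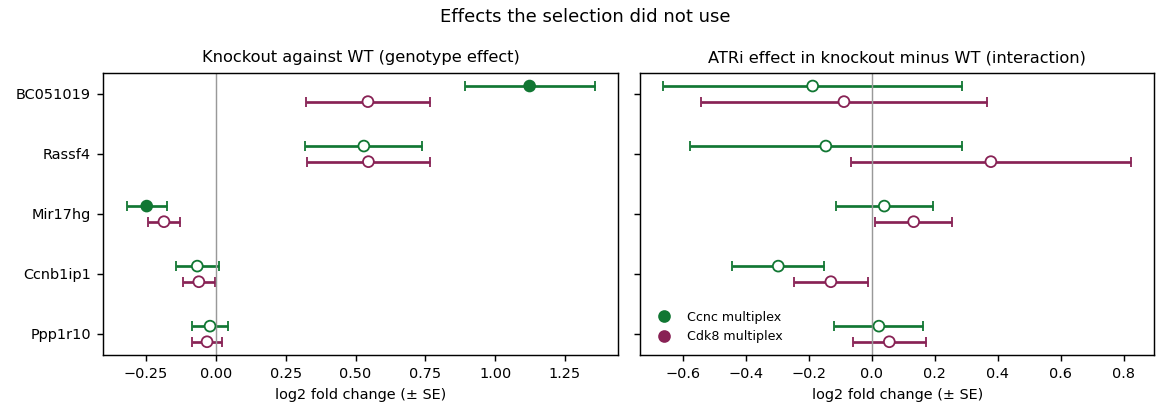
Log2 fold change from edgeR, ± SE computed from it and the test's F statistic, for KO against WT (left) and for the ATRi effect in KO minus that in WT (right). The Ccnc multiplex is in green and the Cdk8 multiplex in purple, with filled points for an adjusted p under 0.05. The filled points are BC051019 (1.12) and Mir17hg (-0.25) in the Ccnc multiplex, and no interaction is filled.

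Whether the ATRi response differed between KO and WT was tested as an interaction. The genes were chosen on the ATRi effect of a fit without this term, in which a gene whose response differs between genotypes is less likely to pass. The choice thus favoured genes without an interaction, and a lack of calls among them is in part set by it. None of the 5 genes differed past the threshold by edgeR or by DESeq2 in either multiplex, 0 of the 5 reached an unadjusted p under 0.05, and over all genes 0% were called in either multiplex, with 395 and 255 genes at an unadjusted p under 0.05. The precision differed between the genes. For Ppp1r10 the difference in log2 fold change was 0.02 (SE 0.14) in the Ccnc and 0.06 (SE 0.12) in the Cdk8 multiplex, and for Mir17hg 0.04 (SE 0.15) and 0.13 (SE 0.12). For Ccnb1ip1 it was -0.30 (SE 0.15, unadjusted p = 0.0622 by edgeR) and -0.13 (SE 0.12). For the low-count genes the SE was near 0.45, with -0.19 (SE 0.47) and -0.09 (SE 0.45) for BC051019 and -0.15 (SE 0.43) and 0.38 (SE 0.45) for Rassf4, so that a difference was measured with less precision for this pair than for the other 3 genes. In these fits the WT response under ATRi comes from WT replicate 1 alone, and with WT replicate 2 included the sign turned for BC051019 in both multiplexes (0.27 and 0.39), with no call.

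The WT libraries read again in the Cdk8 multiplex show how far a level moved with the sequencing run alone. The ratio of the second to the first CPM was 0.969 to 1.03 for Ppp1r10, 0.978 to 1.11 for Ccnb1ip1 and 1.03 to 1.12 for Mir17hg. For the low-count genes it was 0.912 to 1.32 for BC051019 and 1.11 to 1.51 for Rassf4. Rassf4 and Mir17hg were thus higher in all 4 libraries of the second run, and levels are compared between genotypes only within a multiplex.

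The genes with which each of the 5 is known to work, and those that are known to regulate Mir17hg or to be targets of its microRNAs, were collected in 9 lists of 144 genes. By edgeR 2 of 128 tested list genes were called for ATRi among the libraries with Ccnc KO (1.56%, against 1.11% of all genes) and 0 of 129 among those with Cdk8 KO, where 15 reached an unadjusted p under 0.05 and DESeq2 called 4. Over all genes, 16.2% (Ccnc multiplex) and 11.5% (Cdk8 multiplex) reached an unadjusted p under 0.05 for ATRi, and the counts of this kind given for each list are to be read against these shares. The median log2 fold change over these genes was -0.01 and 0.00. With the clone as a block, which pairs the libraries of a line, the counts were 4 and 22. The block moved the count over all genes in the same way, from 206 to 451 of 18577 (Ccnc multiplex) and from 16 to 2107 of 18721 (Cdk8 multiplex). Genes named below as called with the block are to be read against these counts.

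Among 21 partners of PNUTS and factors of transcription termination, 1 rose in the Ccnc multiplex. This was Supt5, the elongation factor SPT5 that PNUTS-PP1 dephosphorylates (log2 fold change 0.23, edgeR adjusted p = 0.0420). In the Cdk8 multiplex Supt5 had 0.19 (edgeR adjusted p = 0.103), and it was called and higher there with the clone as a block and by DESeq2. The direct partners of PNUTS in its complex, Tox4 (0.08 and 0.09) and Wdr82 (0.07 and 0.01), and the catalytic subunit Ppp1ca (0.07 and 0.03), were not called. Another catalytic subunit, Ppp1cc, had 0.05 (edgeR adjusted p = 0.716) and 0.17 (edgeR adjusted p = 0.210), and was called and higher in the Cdk8 multiplex by DESeq2 and with the block, which there also called Cstf3 as raised and Fip1l1 as lowered. Of 25 other regulatory subunits of PP1, 0 were called in either multiplex by edgeR or DESeq2 (5 and 3 at an unadjusted p under 0.05), and with the block 1 (Ppp1r7) was raised and 3 (Ppp1r3b, Ppp1r13l and Ppp1r9a) were lowered in the Cdk8 multiplex.

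None of the 25 meiotic crossover and synapsis genes tested was called for ATRi by edgeR in either multiplex (7 and 1 at an unadjusted p under 0.05), and DESeq2 called Sycp3, of the synaptonemal complex, as lowered in the Ccnc multiplex. With the block Sycp3 was called and lower in the Ccnc multiplex and Rec8 and Syce1 in the Cdk8 multiplex. The median log2 fold change of the 25 genes was -0.19 and -0.11. Of the 9 cyclin B and CDK1 genes tested 0 were called by edgeR or DESeq2 (1 and 3 at an unadjusted p under 0.05), at medians of 0.03 and 0.10, and with the block Cks2, Ccnb2 and Cks1b were called and higher in the Cdk8 multiplex. In the RASSF and Hippo list 0 of 16 were called by edgeR (3 and 2 at an unadjusted p under 0.05). Rassf2, another RASSF gene, had -0.65 (edgeR adjusted p = 0.0618) and -0.64 (edgeR adjusted p = 0.142), and DESeq2 called it as lowered in both multiplexes, as did edgeR with the block. The Hippo kinase gene Lats1 had 0.43 (SE 0.36) and -0.65 (SE 0.39). The Hippo kinase gene Stk3 had -0.24 and -0.23, and was called and lower in the Cdk8 multiplex by DESeq2 and with the block. Stk4 had 0.05 and 0.04.

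Of 6 other microRNA host transcripts tested, Mirg, the host of a microRNA cluster on the imprinted Dlk1-Dio3 region, was called and fell by 0.45 on the log2 scale in the Ccnc multiplex (edgeR adjusted p = 0.0138), with -0.27 in the Cdk8 multiplex (edgeR adjusted p = 0.609). With the block Mirg was called and lower in both multiplexes, and Meg3, from the same region, in the Cdk8 multiplex. Of the 18 MYC and E2F family genes 0 were called by edgeR or DESeq2 (3 and 1 at an unadjusted p under 0.05), and Myc itself had 0.19 (edgeR adjusted p = 0.253) and 0.35 (edgeR adjusted p = 0.265). With the block Myc and E2f8 were called and higher in the Cdk8 multiplex. Of the 9 known targets of the miR-17-92 microRNAs 0 were called by edgeR or DESeq2 (1 and 0 at an unadjusted p under 0.05), with medians of -0.05 and -0.09. Bcl2l11, which encodes the apoptosis factor BIM, had 0.15 and 0.22, Tgfbr2, a TGF-beta receptor gene, -0.42 and -0.64, and Zbtb4 -0.11 and -0.71. With the block, in the Cdk8 multiplex, Bcl2l11 was called and higher and Zbtb4 and Tgfbr2 were called and lower.

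For genotype, 19 of the 128 tested list genes were called in Ccnc KO (14.8%, against 12.3% of all genes) and 7 of 129 in Cdk8 KO (5.43%, against 4.31%), shares near those over all genes. The calls come from the fit with no term for the clone, in which a clone's DMSO and ATRi libraries count as separate replicates. Far fewer genes were called over all genes in the DMSO libraries alone, and the list genes are not given for that fit. The genes called are given as values. Of the MYC and E2F genes 5 of 18 were called in Ccnc KO. Mycn (-0.80), Mxd4 (-0.58) and Mxd1 (-0.34) were lower, and E2f7 (0.42) and E2f1 (0.28) higher. In Cdk8 KO E2f7 (0.31) was higher and Mxd4 (-0.52) lower. Of the miR-17-92 targets Rbl2 (-0.49) and Stat3 (-0.27) were lower in Ccnc KO, where Mir17hg was also lower, and Stat3 (-0.39) was lower in Cdk8 KO. Of the meiotic genes 5 of 25 were higher in Ccnc KO, led by Tex11 (1.10), Hormad2 (0.87) and Dmc1 (0.44), and Dmc1 (0.54) in Cdk8 KO, whereas Ccnb1ip1 was not called. Rassf10 (-0.54) and Rassf3 (-0.20) were lower in Ccnc KO. Of the PP1 subunits Ppp1r9b (-0.37) and Ppp1r37 (-0.23) were lower in Ccnc KO, and in Cdk8 KO Ppp1r3b (0.76) was higher and Ppp1r1b (-0.81) lower. Of the PNUTS list, Cstf2 (0.22) was higher in Cdk8 KO. Of the host transcripts Meg3 (-0.65) and Mirg (-0.29) were lower and Mcm7 (0.16), host of the miR-106b cluster, higher in Ccnc KO.

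Of the nearest tested genes on the chromosome, 1 was called for ATRi, and it was lower. There were 22 neighbours or overlapping genes, of which 14 lay within 100000 bases, and the log2 fold changes of these 14 ranged from -0.44 to 0.43. The neighbour called was St5, which lies 8576 bases from BC051019 on the same strand and was lower (-0.33, edgeR adjusted p = 0.0386 in the Ccnc multiplex, and -0.31, edgeR adjusted p = 0.389 in the Cdk8 multiplex). Akip1, which overlaps BC051019 on the other strand, had 0.01 and 0.02. Mrps18b, 45 bases from the start of Ppp1r10 on the other strand, had -0.14 and 0.05, and Parp2, 109 bases from the start of Ccnb1ip1 on the other strand, had -0.06 and 0.02. Rpph1, which shares exon bases with Ccnb1ip1, had 0.42 (edgeR adjusted p = 0.468) and -0.40 (edgeR adjusted p = 0.755).

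**Figure D4:**
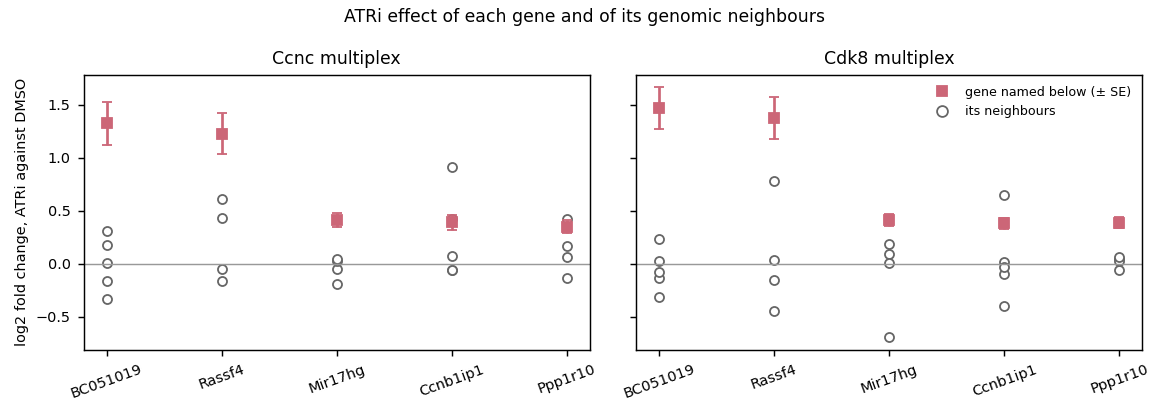
Log2 fold change for ATRi against DMSO from edgeR of each of the 5 genes (squares, ± SE) and of its nearest tested or overlapping genes (open circles), by multiplex. The neighbours of BC051019 lie between -0.33 and 0.30 while the gene itself is at 1.32 and 1.47.

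BC051019 and Rassf4, which had the largest folds, are shown with the sequence before their starts. The bases are those of the RefSeq promoter windows (GRCm38.p6, 250 bases before to 50 after a start) that precede the GENCODE gene, on the minus strand, chr7:109723851-109724021 and chr6:116673953-116674086. The capitals mark a match to CCAAT in either orientation.
BC051019: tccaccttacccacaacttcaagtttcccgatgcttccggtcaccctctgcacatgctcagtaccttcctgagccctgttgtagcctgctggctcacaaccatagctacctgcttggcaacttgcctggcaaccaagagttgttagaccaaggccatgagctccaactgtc
Rassf4: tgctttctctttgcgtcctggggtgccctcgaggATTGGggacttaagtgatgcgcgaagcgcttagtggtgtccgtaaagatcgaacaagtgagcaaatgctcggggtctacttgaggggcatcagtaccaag
The motifs searched on both strands were the E-box CACGTG, the box CCAAT, the box TATAAA, the GC box GGGCGG, the cyclic AMP element TGACGTCA, the E2F-type motifs GCGCGAAA and also GGCGGGAA, and the cell cycle motif TTTGAA, and the matches found did not overlap each other. The full window of Rassf4 held 1 CCAAT and 2 GGGCGG, and those of BC051019 and Ccnb1ip1 held none of the 8 motifs. Of 32851 windows in the table, 37.4% held CCAAT and 35.7% GGGCGG. Ppp1r10 has 2 RefSeq starts, both inside the GENCODE gene, and their windows held GGGCGG and TTTGAA (17.9% of all windows), the first also TATAAA (13.6%). CACGTG, the MYC-type E-box, was in 7.15% of all windows and in that of none of the 5 genes. The RefSeq start of Mir17hg lies 1511 bases inside the GENCODE transcript and within the microRNA cluster, so its window is not taken as the promoter of the host gene. The RefSeq start of Ccnb1ip1 lies 12004 bases inside the GENCODE gene, so its window does not cover the GENCODE start.

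As a description of how alike the genes were, Pearson's r of log2 CPM was taken over the 20 libraries after centring within each multiplex. These libraries share clones, WT cultures and treatments, and no p-value is given. The centring leaves in the ATRi rise by which the genes were chosen, so r between them is in part set by that choice. The same rise enters r with any other gene that was higher under ATRi. How much of r it makes up was not tested. BC051019 and Rassf4 had r = 0.869, and Ccnb1ip1 and Mir17hg r = 0.871. The other pairs had r between 0.432 (BC051019 and Ppp1r10) and 0.776 (Ccnb1ip1 and Rassf4). Among all genes with a mean of at least 1 CPM, those most like BC051019 were Scrn3 (0.911), Spdl1 (0.900) and Snhg5 (0.900), and those most like Rassf4 were 1600012H06Rik (0.896), Spdl1 (0.894) and Dusp6 (0.882). Those most like Ppp1r10 were Rbm22 (0.919), Rad52 (0.918) and Mki67 (0.909). For Ccnb1ip1 they were Rnf146 (0.903), Gt(ROSA)26Sor (0.901) and Eri1 (0.900), and for Mir17hg Pnpla8 (0.919), Rad21 (0.910) and Zfp317 (0.894).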

How the data were processed

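The authors trimmed the reads with Trimmomatic 0.38, aligned them to GRCm38.p6 with HISAT2 2.1.0 and counted them per gene and strand with featureCounts 2.0.1, leaving out reads marked as duplicates, and deposited raw counts per lane. They also deposited log2 values per lane made with DESeq2's rlog, which shrinks the differences of low-count genes. Reads on exon bases that genes share were not restored.

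From the deposited counts, lanes were summed per library (20 libraries, 16 distinct). Each multiplex was fitted with edgeR 4.0.16 in R 4.3.3 (quasi-likelihood test, TMM, filterByExpr, Benjamini-Hochberg adjusted p under 0.05, unadjusted threshold 0.05). ATRi and genotype were fitted beside each other, and the interaction in a model with both. A prior count of 2 was used for log2 CPM. The edgeR test gives no SE, so each SE is the absolute log2 fold change divided by the square root of the test's F statistic. The script was tested on simulated data. Alternatives were DESeq2 1.42.0, RLE scaling, no filter, other sets of libraries, the clone as a block and, chosen after seeing the data, the rlog values. With no term for the clone, the p-values measure the spread between libraries, and the DMSO and ATRi libraries of a clone count as separate replicates, also for genotype.

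The 5 genes and the gene lists were chosen with earlier results of these data known. Some genes of the lists are not reported here and were left out of the list counts. Named beside the 5 genes were Ccnc, Cdk8 and Ccnb1, and the next raised non-histone genes in the order of the larger adjusted p for ATRi. Also named were up to 3 called genes of a list in each direction, the 2 nearest tested genes on each side of a gene and any overlapping gene, and the 3 genes most like each in pattern. List members not called, the genes called with the block or DESeq2 and the genes just outside the threshold were named with their values known. A clone's DMSO and ATRi libraries are of the same line, so the numbers pair the samples. The pairing enters only the alternative with the clone as a block. The correlation of a clone's deviations in DMSO and ATRi was 0.207, 0.0299 and 0.217 for Ccnc KO D1, G2 and H5, and 0.608, 0.682 and 0.209 for Cdk8 KO B9, H4 and C8.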

Additional observations from a re-analysis of the deposited data

How the results depend on the processing

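For the 5 genes, 0 were called for the interaction in either multiplex under every alternative run. Those called for genotype in Ccnc KO were 2 with DESeq2, RLE scaling or no filter, 1 with WT replicate 2 under ATRi included, 0 in the DMSO libraries alone and 0 to 2 when a replicate was left out. In Cdk8 KO DESeq2 called 1, and the other alternatives 0. These counts are to be read beside the calls over all genes, given in the next paragraph for several of the alternatives. Signs turned only where no call was made. With WT replicate 2 under ATRi included, the genotype log2 fold change of Ccnb1ip1 became 0.0272 (Ccnc) and 0.0142 (Cdk8), and in the DMSO libraries alone 0.0536 (Ccnc). The interaction became 0.27 and 0.39 for BC051019 and -0.0753 and -0.0426 for Ppp1r10 (Ccnc and Cdk8), 0.14 for Rassf4 (Ccnc) and 0.0472 for Ccnb1ip1 (Cdk8). With the replicate block, which pairs the libraries of a clone, the interaction of BC051019 became 0.19 (Ccnc) and 0.0947 (Cdk8). With a replicate left out, the genotype value ranged from -0.0637 to 0.0353 for Ppp1r10 (Ccnc), from -0.14 to 0.13 (Ccnc) and from -0.10 to 0.0340 (Cdk8) for Ccnb1ip1. The interaction ranged from -0.29 to 0.20 (Ccnc) and from -0.18 to 0.0928 (Cdk8) for BC051019, from -0.27 to 0.0400 for Rassf4 (Ccnc), from -0.0303 to 0.0729 (Ccnc) and from -0.0124 to 0.11 (Cdk8) for Ppp1r10, and from -0.0145 to 0.14 for Mir17hg (Ccnc). The ATRi log2 fold change of the 5 genes stayed above 0 under every alternative. This measure chose the genes from the same libraries, so its sign is no test of them. In the KO clones alone, the lowest edgeR adjusted p of the 5 genes for ATRi was 0.0689 (BC051019, Ccnc) and 0.386 (Mir17hg, Cdk8). The authors' rlog differences, averaged over KO clones, were 0.22 for both BC051019 and Rassf4 in the Ccnc multiplex and 0.22 and 0.36 in the Cdk8 multiplex. On the log2 CPM scale the same averages were 1.23 and 1.20 (Ccnc) and 1.37 and 1.45 (Cdk8). The rlog values were also the lower ones for Ppp1r10 (0.26 against 0.36), Ccnb1ip1 (0.21 against 0.30) and Mir17hg (0.30 against 0.42) in the Ccnc multiplex. In the Cdk8 multiplex they were 0.29 against 0.40, 0.25 against 0.34 and 0.32 against 0.45. The rlog shrinks the differences of low-count genes, and its part in these values was not tested.

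The calls over all genes moved more. For genotype, the Ccnc multiplex gave 2284, 635 in the DMSO libraries alone and 289 to 2640 with a replicate left out (289 without WT replicate 1, 1387 without clone G2), and the Cdk8 multiplex gave 806, 1799 with DESeq2, 5 in the DMSO libraries alone and 1 to 1512 with a replicate left out (1 without WT replicate 1, 247 without clone C8, 263 without WT replicate 2). For ATRi, the Ccnc multiplex gave 206, 651 with DESeq2, 845 with no filter, 41 with WT replicate 2 included, 451 with the replicate block, 15 in the KO clones alone and 21 to 250 with a replicate left out (21 without WT replicate 1, 25 without G2, 34 without H5). The Cdk8 multiplex gave 16, 378 with DESeq2, 41 with no filter, 2107 with the replicate block, 0 in the KO clones alone and 0 to 29 with a replicate left out (0 without WT replicate 1, 1 without C8). The interaction gave 0, but 20 with no filter (Ccnc) and 4 with the replicate block (Cdk8). Of the related list genes, the Ccnc multiplex gave 2 for ATRi, 4 with DESeq2 or the replicate block, 6 with no filter, 0 with WT replicate 2 included or in the KO clones alone and 0 to 2 with a replicate left out (0 without G2 or WT replicate 1, 1 without H5 or WT replicate 2), and the Cdk8 multiplex gave 0, 4 with DESeq2 and 22 with the replicate block. Without WT replicate 1 a single WT library remained, assumed to vary like the other groups. The causes of these changes were not tested. Depth limits BC051019 and Rassf4, which had as few as 9 and 22 reads in a library.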
